A study of Homo sapiens with 15 samples.

Results

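RNA sequencing was used to follow the response to insulin of 12Z cells that carried an empty vector and had been depleted of RSAD2, the gene of the antiviral enzyme viperin. The comparison holds 6 of the 15 libraries of the series, chosen by their labels: 3 libraries of insulin-treated cells and 3 of vehicle-treated cells. 12Z is an immortalised epithelial line from an endometriotic lesion. All 6 cultures received a pool of siRNAs against RSAD2 (siRSAD2), a pBabe control plasmid 24 hours later, and serum-free medium for 4 hours starting 24 hours after the plasmid. The cells then had 24 hours of 100 nM insulin or of vehicle before RNA was taken. The other 9 libraries are 3 of siRSAD2 cells with PIK3CA H1047R and insulin, 3 of siRSAD2 cells with PIK3CA H1047R and vehicle, and 3 of cells with a non-targeting siRNA pool, empty vector and vehicle. PIK3CA H1047R is an activated catalytic subunit of phosphatidylinositol 3-kinase (PI3K). Both groups compared carry the knockdown, so the response to insulin without it is not analysed here. The siRNAs and plasmids were given transiently to 1 cell line, and the methods describe the 3 libraries of a group as independent experiments.

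Insulin binds the insulin receptor and, at high concentration, the related receptor of insulin-like growth factor (IGF). Both phosphorylate the adaptors IRS1 and IRS2, which pass the signal to PI3K and AKT and to the RAS and ERK kinases. AKT drives FOXO transcription factors out of the nucleus, and ERK induces its own inhibitors. In the endometrium insulin and IGF promote epithelial growth, and endometriotic epithelium expresses many genes of matrix remodelling and adhesion.

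The libraries held 24.3, 23.3 and 16.1 M gene counts with insulin and 29.3, 26.3 and 29.0 M with vehicle. Levels are CPM, counts scaled to a common library size by the TMM method, differences are log2 fold changes of insulin over vehicle with their standard error (SE), and adjusted p values come from edgeR's quasi-likelihood test with a threshold of 0.05. RSAD2 had 0.447, 0.129 and 0.417 CPM in insulin-treated cells, against 0.691, 0.0768 and 0.208 CPM in vehicle-treated cells, from 2 to 20 counts in each library. The groups overlapped (-0.02 ± 0.55, adjusted p = 0.989), and cells with the non-targeting siRNA averaged 3.29 CPM. Keratin genes of simple epithelium were abundant, with KRT8 at 821 to 940 CPM and KRT18 at 494 to 590 CPM in insulin-treated cells, whereas the epithelial adhesion genes EPCAM and CDH1 stayed at or below 0.61 and 0.816 CPM in all 6 libraries. Mesenchymal genes such as VIM and COL1A1 were also abundant. Vehicle library 3 stood apart: 486 genes, 427 of them pseudogenes, were over 3 times higher in it than in every other library, where 1 to 8 genes were so in the other 5 libraries. Insulin library 2 differed most from its replicates, and insulin library 3 was the shallowest. Genes are therefore named as leading changes only where they also passed without vehicle library 3 and without insulin library 2. Groups that do not overlap were required too, so that for these genes neither property is a finding.

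Insulin lowered more genes than it raised. Of 23184 genes tested, 1457 passed (6.28%), 971 lower (4.19%) and 486 higher (2.1%), with a median log2 difference of -0.32 among the lower and 0.31 among the higher genes. A total of 775 genes also passed without vehicle library 3 and without insulin library 2, 601 lower and 174 higher. Of these, 16 lower and 12 higher genes changed at least 2-fold, and 9 lower genes and 1 higher gene of them had a mean of at least 5 CPM. The 775 genes are 3.34% of those tested, the 601 lower genes 2.59% and the 174 higher genes 0.751%. The counts are sensitive to the libraries used: 710 lower (3.1%) and 237 higher genes (1.04%) passed without vehicle library 3, and 420 (1.8%) and 100 (0.428%) in a fit of the 6 libraries alone. Leaving out the other libraries in turn gave 3.84% lower and 1.18% higher without vehicle library 2, 4.11% and 1.66% without vehicle library 1, 3.55% and 1.65% without insulin library 3, 3.8% and 1.54% without insulin library 2, and 5% and 2.93% without insulin library 1. Groups of 3 libraries did not overlap in 9.6% of all tested genes in the lower direction and in 9.28% in the higher direction (18.9% together), so that a lack of overlap in single genes is common here. Counts of list members below are to be read against the 4.19% lower and 2.1% higher over all genes tested. In bulk RNA, fewer cells of a kind and less RNA per cell cannot be told apart.

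**Figure D1:**
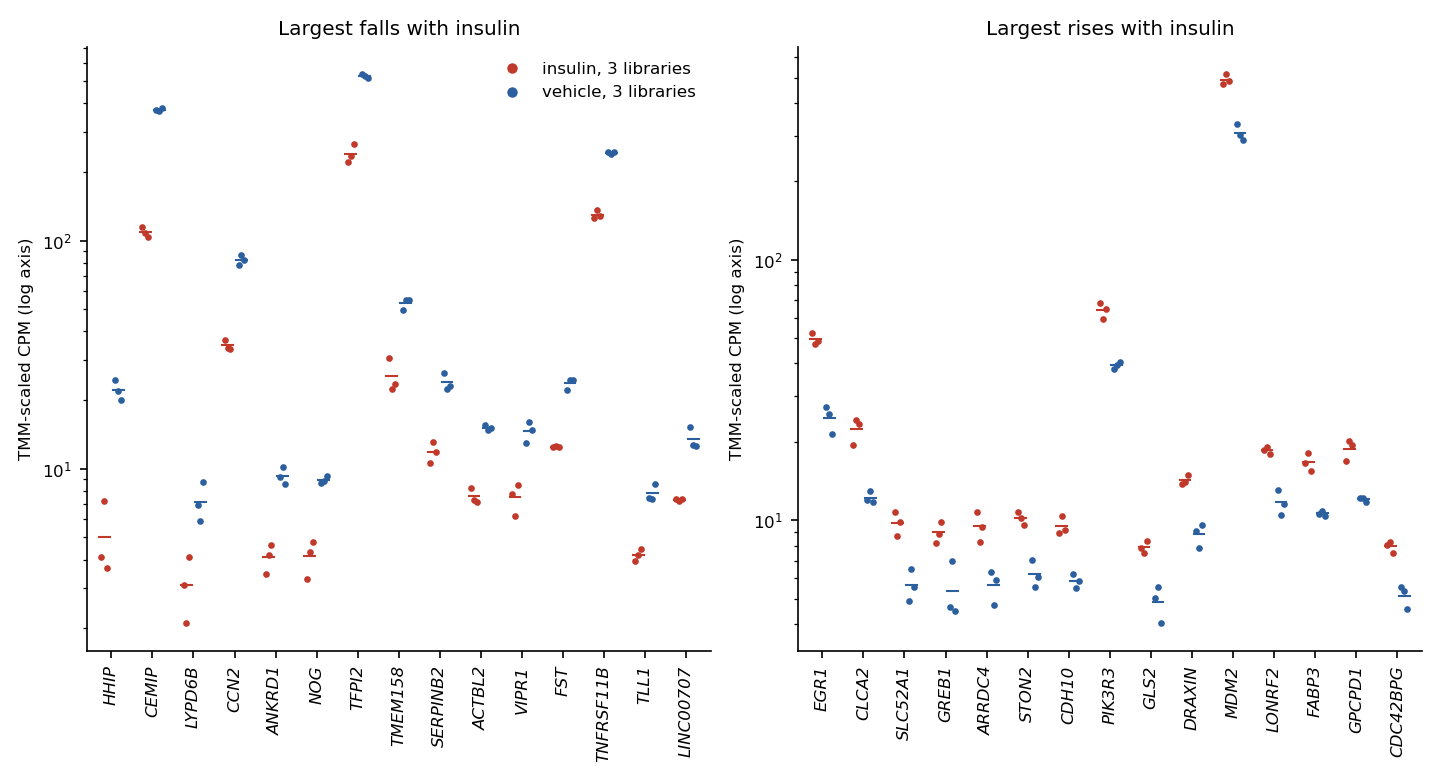
Levels in TMM-scaled CPM (vertical axes, log scale) of the 15 genes with the largest falls (left) and the 15 with the largest rises (right), insulin left of vehicle for each gene; points are libraries and lines the mean of 3. Groups that do not overlap were a condition for choosing these genes. CEMIP, for example, lies at 104 to 115 CPM with insulin and 371 to 383 CPM with vehicle.

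CEMIP, which encodes a hyaluronan-binding protein needed for the breakdown of hyaluronan, had the smallest p of all genes. CEMIP (ENSG00000103888.17, hg38 chromosome 15, 80779343 to 80951776, plus strand) had 115, 108 and 104 CPM in insulin-treated cells, against 373, 371 and 383 CPM in vehicle-treated cells. Every insulin library lay below every vehicle library, a 3.44-fold lower level (-1.78 ± 0.06, adjusted p = 6.55e-19, n = 3 libraries a group). Further genes of hyaluronan biology fell with it. CD44, the main hyaluronan receptor, had 1130, 1143 and 1097 CPM with insulin, against 1789, 1776 and 1738 CPM with vehicle (-0.65 ± 0.04). PTX3, a pentraxin that helps crosslink hyaluronan in the matrix of the ovulating follicle, had 41.1, 51.8 and 50.8 CPM with insulin, against 84.7, 85.4 and 87.0 CPM with vehicle (-0.84 ± 0.07). The groups did not overlap for either gene. Of 19 measured genes of hyaluronan synthesis, binding and breakdown, these 3 fell and 3 rose: the synthase HAS3 (0.58 ± 0.17), the heavy chain gene ITIH5 (0.68 ± 0.19) and TNFAIP6, whose product transfers heavy chains to hyaluronan (0.57 ± 0.17). None of the 3 rises passed without vehicle library 3 or without insulin library 2, and the synthase HAS2 did not pass (-0.16 ± 0.12).

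The insulin receptor, the IGF-1 receptor and both IRS adaptors were lower. Of 29 measured insulin receptor and PI3K genes, 9 fell and 1 rose, and the median was -0.05, against 0.00 over all genes tested. INSR, the insulin receptor, had 24.2, 24.9 and 24.6 CPM in insulin-treated cells, against 32.3, 37.8 and 36.9 CPM in vehicle-treated cells (-0.54 ± 0.07, adjusted p = 3.31e-06). IGF1R, the receptor of IGF-1, had 66.7, 69.1 and 63.5 CPM with insulin, against 90.8, 86.5 and 85.2 CPM with vehicle (-0.40 ± 0.05). The adaptor IRS2, a gene that FOXO factors activate in liver, had 27.9, 24.0 and 28.7 CPM with insulin, against 44.9, 45.3 and 42.5 CPM with vehicle (-0.72 ± 0.07, adjusted p = 9.66e-09). For these 3 genes no insulin library reached the lowest vehicle library. The related adaptor IRS1 fell less, by 0.39 ± 0.06, and so did the catalytic subunit PIK3CD (-0.41 ± 0.07), the lipid phosphatase INPP4B (-0.28 ± 0.07), the AKT phosphatase PHLPP1 (-0.29 ± 0.08) and the PI3K inhibitor PIK3IP1 (-0.41 ± 0.11). The exception was PIK3R3, a regulatory subunit of PI3K. It had 59.2 to 68.2 CPM in insulin-treated cells, against 38.1 to 40.6 CPM in vehicle-treated cells, and the groups were far apart (0.70 ± 0.06, adjusted p = 1.32e-09). PIK3CA, the subunit that the plasmid of the H1047R groups carries, had 79.7, 81.4 and 76.4 CPM with insulin, against 92.1, 84.5 and 90.5 CPM with vehicle and did not pass (-0.17 ± 0.05, adjusted p = 0.0566), though it passed in DESeq2 (0.0239) and in edgeR without insulin library 2 (0.0378). AKT1 did not pass either (-0.13 ± 0.05). In the fit of the 6 libraries alone 5 members of the list were lower and 1 higher.

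**Figure D2:**
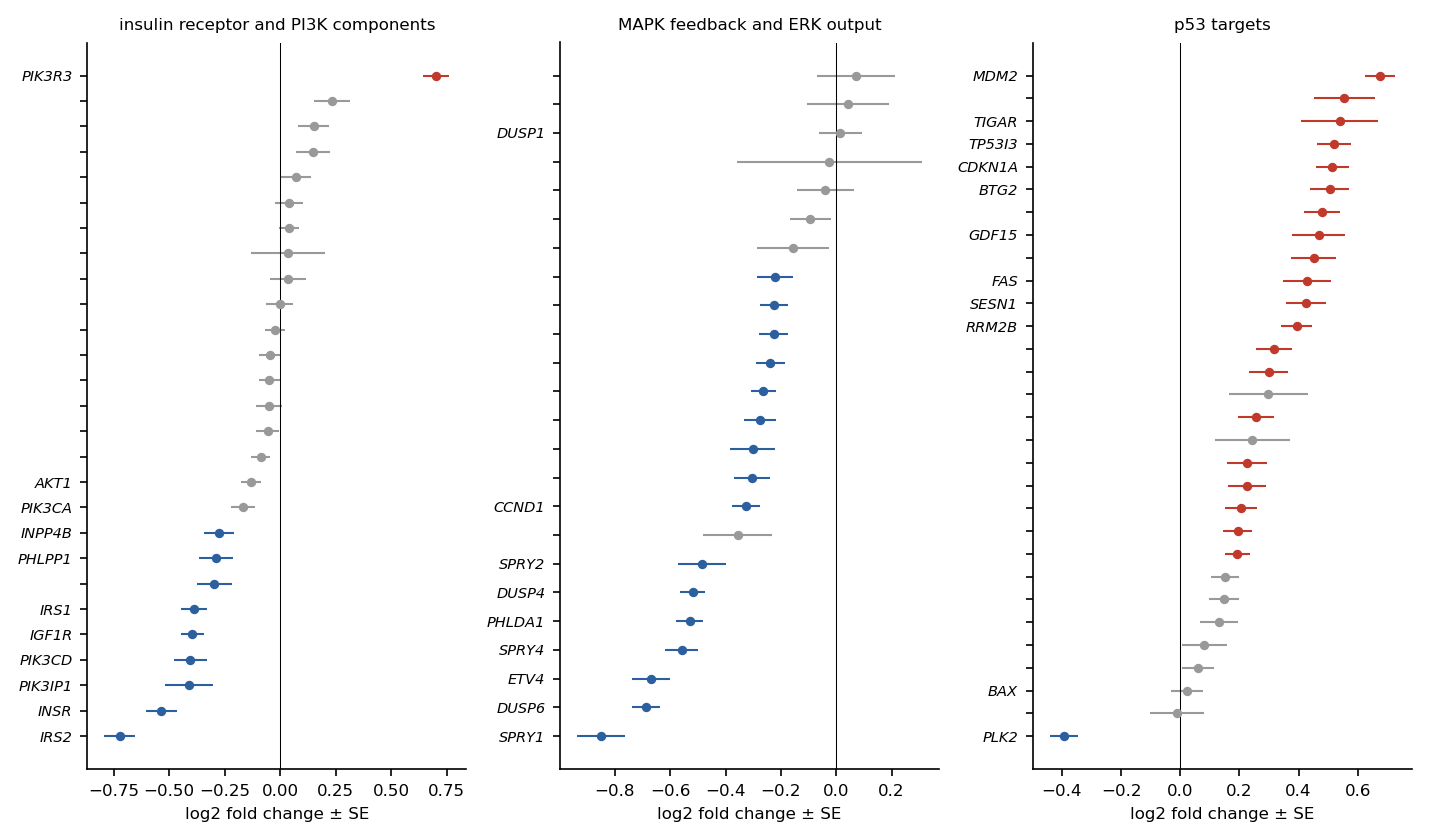
Log2 fold change of insulin over vehicle with its SE (horizontal axes) for members of 3 gene lists; red genes rose and blue genes fell past the adjusted threshold, grey genes did not pass, and 2, 1 and 1 members with an SE of at least 0.5 are not drawn, with names beside the genes that the text describes. INSR, IGF1R, IRS1 and IRS2 and several feedback genes of ERK lie to the left, with PIK3R3 at 0.70 on the right, and most p53 targets lie to the right.

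FOXO-linked genes, most of which FOXO factors activate when insulin is low, had 11 of 28 measured members lower and 4 higher, with a median of -0.22. CITED2, a coregulator of transcription, had 124, 119 and 125 CPM in insulin-treated cells, against 172, 179 and 167 CPM in vehicle-treated cells (-0.50 ± 0.05, adjusted p = 7.62e-09). MXI1, a MYC antagonist, fell by 0.50 ± 0.07, the cyclin CCNG2 by 0.37 ± 0.06 and the repressor BCL6 by 0.31 ± 0.07. SESN1, a stress sensor that is also a p53 target, rose by 0.43 ± 0.07, and TXNIP, which curbs glucose uptake, by 0.23 ± 0.05. The factors FOXO1 (-0.21 ± 0.16) and FOXO3 (0.08 ± 0.06) did not pass. Without insulin library 2 the higher members were 2, and in the fit of the 6 libraries alone 7 members were lower and 1 higher.

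Of 13 measured IGF ligands and binding proteins and related genes 6 fell and 1 rose. PAPPA encodes the protease that cleaves IGFBP4 and so frees IGF. It had 21.7, 25.6 and 21.7 CPM in insulin-treated cells, against 43.5, 43.0 and 41.0 CPM in vehicle-treated cells, groups that did not overlap (-0.88 ± 0.07, adjusted p = 3.38e-10). Its substrate IGFBP4 had 291, 237 and 258 CPM with insulin, against 356, 369 and 357 CPM with vehicle (-0.46 ± 0.05). The stanniocalcins STC2 and STC1, which inhibit that protease, fell by 0.40 ± 0.06 and 0.43 ± 0.08, and the binding protein IGFBP7 by 0.54 ± 0.09. PAPPA2, a related protease, passed as higher on 9, 10 and 10 counts with insulin, against 0, 1 and 0 counts with vehicle, too few to give a size.

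Feedback inhibitors of ERK signalling fell together. Of 25 measured genes of MAPK feedback and ERK output, 16 fell, none rose and 9 did not pass, with a median of -0.26. DUSP6, a phosphatase of ERK, had 72.1, 77.8 and 73.2 CPM in insulin-treated cells, against 117, 123 and 120 CPM in vehicle-treated cells (-0.69 ± 0.05, adjusted p = 7.22e-11). DUSP4, a nuclear ERK phosphatase, had 245, 236 and 253 CPM with insulin, against 352, 358 and 342 CPM with vehicle (-0.52 ± 0.05). SPRY1, a Sprouty inhibitor of receptor signalling, had 13.6, 12.8 and 14.8 CPM with insulin, against 24.0, 25.4 and 24.8 CPM with vehicle (-0.85 ± 0.09). All 3 genes had groups that did not overlap. SPRY4 (-0.56 ± 0.06), SPRY2 (-0.49 ± 0.09), the transcription factor ETV4 (-0.67 ± 0.07) and the apoptosis-linked gene PHLDA1 (-0.53 ± 0.05) fell too, and so did CCND1, cyclin D1, by 0.33 ± 0.05. The stress-induced phosphatase DUSP1 did not pass (0.01 ± 0.08). Without vehicle library 3, 15 members were lower, and 10 in the fit of the 6 libraries alone.

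Among 27 measured immediate early factors, 11 fell and 2 rose. EGR1, a zinc finger factor induced within minutes by growth factors, went the other way from the ERK feedback genes. EGR1 (ENSG00000120738.8, chromosome 5, 138465479 to 138469303, plus strand) had 52.3, 47.4 and 49.0 CPM in insulin-treated cells, against 27.2, 25.6 and 21.5 CPM in vehicle-treated cells. All insulin libraries were higher, by 2-fold on average (1.00 ± 0.07, adjusted p = 4.34e-11). FOSL1, an AP-1 subunit that ERK stabilises, had 42.7, 41.3 and 37.5 CPM with insulin, against 65.2, 62.9 and 65.2 CPM with vehicle (-0.67 ± 0.06). MAFF, a small MAF factor, had 20.1, 21.9 and 20.3 CPM with insulin, against 34.8, 33.9 and 35.4 CPM with vehicle (-0.74 ± 0.07). MYC fell by 0.40 ± 0.07 and KLF6 by 0.32 ± 0.05, KLF10 rose by 0.37 ± 0.07, and FOS did not pass (-0.15 ± 0.14). Without vehicle library 3 and insulin library 2 together, 6 members of this list were lower.

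CCN2 and ANKRD1, textbook targets of the transcription coactivators YAP and TAZ, fell strongly. YAP and TAZ carry no DNA-binding domain and act through TEAD factors, which bind the letters GGAATG. CCN2, connective tissue growth factor (ENSG00000118523.6, chromosome 6, 131948176 to 131951372, minus strand), had 36.8, 34.0 and 33.5 CPM in insulin-treated cells, against 78.5, 86.6 and 82.2 CPM in vehicle-treated cells. The groups were well separated, with a 2.37-fold lower level (-1.24 ± 0.06, adjusted p = 6.69e-15). ANKRD1, an ankyrin repeat protein of the nucleus and sarcomere, had 3.46, 4.21 and 4.64 CPM with insulin, against 9.16, 10.1 and 8.54 CPM with vehicle (-1.19 ± 0.15, adjusted p = 2.27e-06). Their promoters, with EGR1 and the chemokine CXCL8, are shown because these 4 genes were among the larger changes in lists tied to a DNA-binding factor; they were chosen after their values were seen. Each window holds 300 bases of the RefSeq GRCh38.p14 assembly on the gene's strand, from 250 before to 50 after the RefSeq start; capitals mark the motif letters searched for on both strands. CCN2 is at chr6:131951323-131951622 on the minus strand, ANKRD1 at chr10:90921038-90921337 on the minus strand, EGR1 at chr5:138465229-138465528 on the plus strand and CXCL8 at chr4:73740319-73740618 on the plus strand.
CCN2: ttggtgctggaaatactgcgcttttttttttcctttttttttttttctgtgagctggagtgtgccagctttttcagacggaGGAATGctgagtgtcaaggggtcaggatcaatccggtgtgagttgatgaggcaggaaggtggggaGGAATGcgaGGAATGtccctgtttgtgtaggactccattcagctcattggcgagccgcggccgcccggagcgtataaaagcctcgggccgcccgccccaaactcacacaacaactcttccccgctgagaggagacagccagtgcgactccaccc
ANKRD1: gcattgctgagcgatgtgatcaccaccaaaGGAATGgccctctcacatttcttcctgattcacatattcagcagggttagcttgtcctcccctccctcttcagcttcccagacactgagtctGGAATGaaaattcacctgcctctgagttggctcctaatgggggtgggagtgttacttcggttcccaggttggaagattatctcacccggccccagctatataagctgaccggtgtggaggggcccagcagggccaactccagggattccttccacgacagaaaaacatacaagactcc
EGR1: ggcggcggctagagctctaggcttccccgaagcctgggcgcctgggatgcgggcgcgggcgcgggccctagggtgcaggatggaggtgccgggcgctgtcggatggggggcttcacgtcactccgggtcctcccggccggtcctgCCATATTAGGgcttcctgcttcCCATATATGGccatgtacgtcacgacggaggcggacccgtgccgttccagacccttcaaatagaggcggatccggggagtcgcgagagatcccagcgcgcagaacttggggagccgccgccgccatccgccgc
CXCL8: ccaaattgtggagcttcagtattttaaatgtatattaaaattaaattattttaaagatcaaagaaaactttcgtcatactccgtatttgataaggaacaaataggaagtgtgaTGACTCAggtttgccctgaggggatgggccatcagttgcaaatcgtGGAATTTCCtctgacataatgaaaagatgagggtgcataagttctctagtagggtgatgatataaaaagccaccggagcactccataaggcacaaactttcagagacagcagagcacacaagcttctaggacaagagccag
The CCN2 window holds GGAATG 3 times, starting 169, 104 and 95 bases before the start, and the ANKRD1 window holds it at 220 and 128 bases before. GGAATG or its reverse complement occurred in 14% of 35116 RefSeq windows, in 11.4% of those matched to tested genes, in 12.3% of the windows of lower genes and in 7 of the 18 windows found for the YAP and TEAD target list, which was drawn from known targets. The EGR1 window holds 2 CArG boxes, the motif of serum response factor (SRF), 105 and 83 bases before the start, and 1.29% of windows hold a CArG box. In the CXCL8 window the AP-1 letters TGACTCA, the reverse complement of TGAGTCA (4.95% of windows), lie 137 bases before the start, and the NF-kB letters GGAATTTCC (0.461% of windows) 91 bases before. These matches describe the letters and say nothing of binding in these cells.

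Of 24 measured YAP and TEAD targets 12 fell and none rose, with a median of -0.19. CCN1, a matrix protein related to CCN2, had 123, 137 and 132 CPM in insulin-treated cells, against 185, 197 and 186 CPM in vehicle-treated cells (-0.54 ± 0.05). NT5E, an ectonucleotidase, fell by 0.56 ± 0.05, the receptor tyrosine kinase AXL by 0.39 ± 0.05 and the membrane repair protein gene MYOF by 0.20 ± 0.04. Among 22 components of the pathway, 5 fell: WWTR1, which encodes TAZ (-0.32 ± 0.05), the angiomotins AMOTL1 (-0.24 ± 0.04) and AMOTL2 (-0.41 ± 0.07), the TEAD cofactor VGLL3 (-0.40 ± 0.07) and the scaffold SAV1 (-0.23 ± 0.05). YAP1 had 285, 320 and 284 CPM with insulin, against 304, 297 and 287 CPM with vehicle, overlapping groups (0.00 ± 0.05). TEAD1 did not pass (-0.12 ± 0.05). Actin and SRF target genes had 9 of 26 members lower and 1 higher, with a median of -0.14, among them VCL, vinculin (-0.31 ± 0.04), ZYX, zyxin (-0.36 ± 0.06), and MYH9, non-muscle myosin (-0.20 ± 0.05). In the fit of the 6 libraries alone 3 actin genes were lower and none higher. Of these genes, ACTG2 passed only through vehicle library 3, with 6.35 CPM there and at most 0.0813 CPM in the other 5 libraries. ACTBL2, an actin-like gene, fell by 1.00 ± 0.11, but actin genes are nearly identical and share reads.

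**Figure D3:**
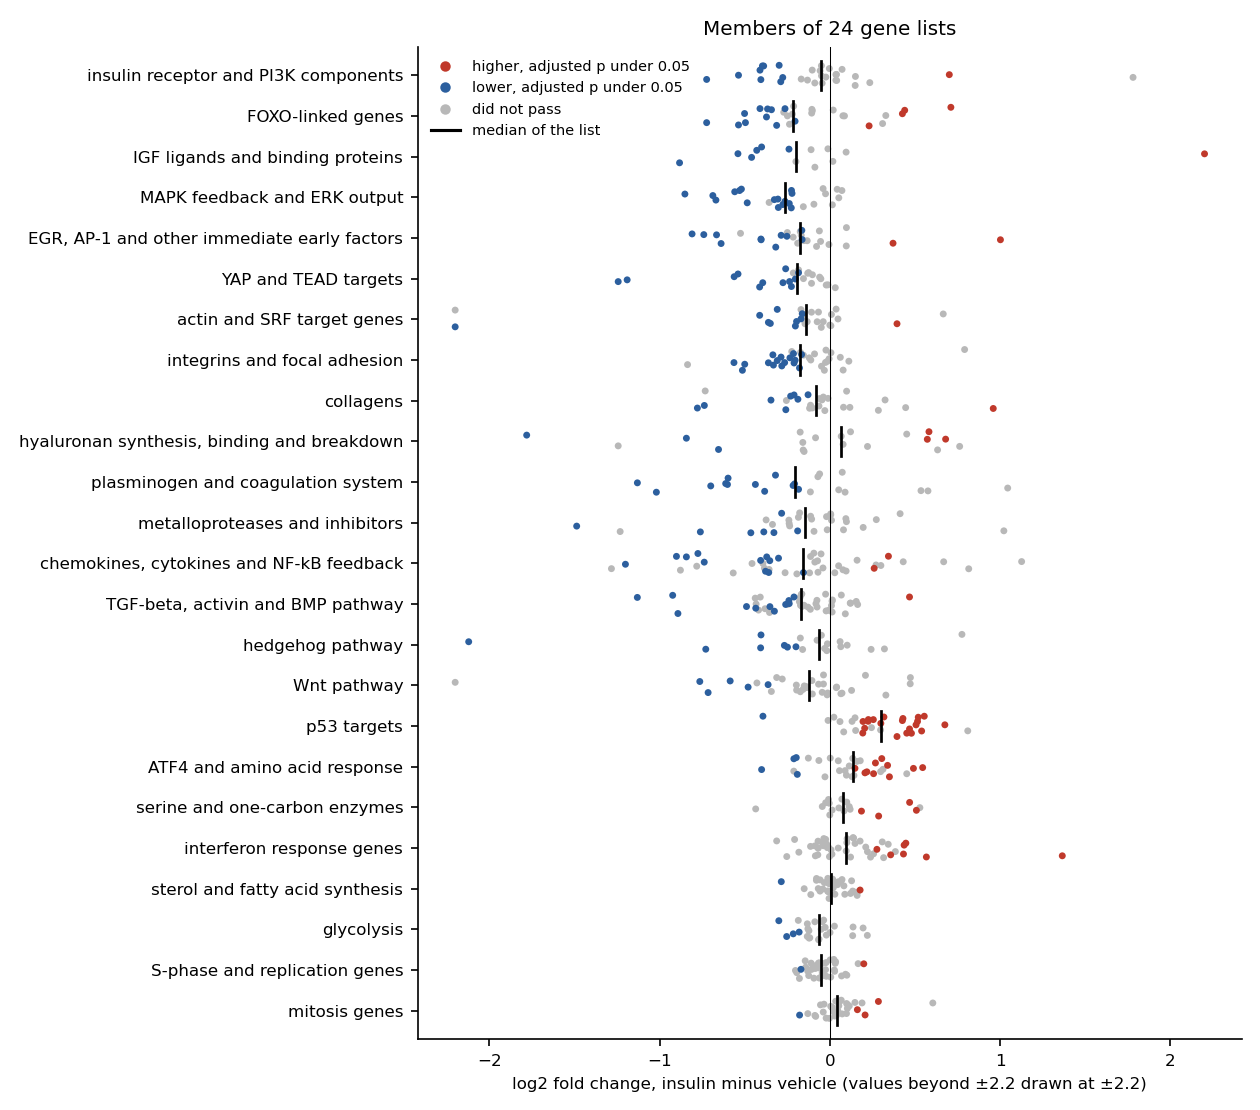
Log2 fold change of insulin over vehicle (horizontal axis, drawn at 2.2 or -2.2 where beyond) for each measured member of 24 gene lists (vertical axis); red members rose and blue members fell past the adjusted threshold, grey did not pass, and black bars are list medians. The p53 targets have 20 red members and a median of 0.30, while MAPK feedback and integrins have 16 blue members each and no red one.

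Integrins and focal adhesion genes fell in 16 of 34 measured members, with none higher and a median of -0.18. ITGA2, a subunit of a collagen receptor, had 103, 108 and 93.7 CPM in insulin-treated cells, against 155, 147 and 148 CPM in vehicle-treated cells (-0.56 ± 0.05, adjusted p = 8.07e-09). ITGB5, a subunit of a vitronectin receptor, had 89.4, 76.0 and 90.6 CPM with insulin, against 119, 123 and 120 CPM with vehicle (-0.50 ± 0.06). ITGB4, a hemidesmosome integrin, fell by 0.51 ± 0.07 and ACTN4, an actin crosslinker, by 0.28 ± 0.04. The groups did not overlap for ITGA2 and ITGB5. In the fit of the 6 libraries alone 10 members were lower.

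Most matrix genes did not pass, and more of those that passed fell than rose. FN1, fibronectin, had 2251, 2183 and 2074 CPM in insulin-treated cells, against 2779, 2694 and 2666 CPM in vehicle-treated cells (-0.32 ± 0.04). THBS1, thrombospondin-1, had 926, 855 and 949 CPM with insulin, against 1318, 1257 and 1284 CPM with vehicle (-0.50 ± 0.06). Both genes had groups that did not overlap, and of 48 matrix glycoproteins and proteoglycans 7 fell and 3 rose. The rises were ECM2 (49, 80 and 57 counts with insulin, against 27, 26 and 36 with vehicle), tenascin-C, TNC (0.28 ± 0.05), and periostin, POSTN (0.20 ± 0.05), which did not pass without insulin library 2 (adjusted p = 0.128); in the fit of the 6 libraries alone 1 member was higher. Of 26 collagens 8 fell and 1 rose. COL8A1, a network collagen, fell by 0.78 ± 0.07, COL13A1 by 0.74 ± 0.09 and the basement membrane chain COL4A2 by 0.26 ± 0.04. In the fit of the 6 libraries alone 4 collagens were lower. COL1A1 did not pass (-0.06 ± 0.05), and COL15A1, the higher member, did not pass without vehicle library 3 or without insulin library 2. LOX and LOXL2, which crosslink collagen, fell by 0.47 ± 0.04 and 0.32 ± 0.04.

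In the plasminogen and coagulation list 12 of 21 measured members fell and none rose, with a median of -0.21. TFPI2, an inhibitor of plasmin and other serine proteases, had 221, 235 and 266 CPM in insulin-treated cells, against 536, 528 and 515 CPM in vehicle-treated cells. Its groups did not overlap, and the level was 2.19-fold lower (-1.13 ± 0.06, adjusted p = 6.69e-15). SERPINE2, protease nexin-1, had 1310, 1282 and 1319 CPM with insulin, against 2027, 1964 and 1942 CPM with vehicle (-0.60 ± 0.04). PLAU, the urokinase plasminogen activator, had 52.3, 48.3 and 54.5 CPM with insulin, against 74.6, 80.5 and 81.4 CPM with vehicle (-0.61 ± 0.06). The activator, its receptor PLAUR (-0.60 ± 0.08) and its inhibitor SERPINB2 (-1.02 ± 0.10) were thus all lower. Of 30 metalloproteases and inhibitors 7 fell and none rose. ADAMTS5, an aggrecanase, fell by 0.76 ± 0.08, ADAMTS1 by 0.46 ± 0.06 and the inhibitor TIMP2 by 0.39 ± 0.05. MMP1, interstitial collagenase, had 1.83, 1.37 and 3.04 CPM with insulin, against 6.95, 4.42 and 5.55 CPM with vehicle (-1.49 ± 0.22), a large difference at a low level.

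Of 43 measured chemokines, cytokines, their receptors and NF-kB feedback genes, 12 fell, 2 rose and 29 did not pass. TNFRSF11B, osteoprotegerin, a decoy receptor of RANKL and TRAIL, had 125, 137 and 128 CPM in insulin-treated cells, against 246, 239 and 244 CPM in vehicle-treated cells (-0.90 ± 0.05, adjusted p = 4.73e-14). CXCL8, the neutrophil chemokine whose promoter is shown above, had 2.32, 2.88 and 2.32 CPM with insulin, against 6.12, 5.57 and 5.66 CPM with vehicle, from 39 to 67 counts with insulin and 145 to 177 counts with vehicle (-1.20 ± 0.16, adjusted p = 3.97e-06). CXCL6, a related chemokine, had 10.7, 12.4 and 12.0 CPM with insulin, against 19.8, 21.0 and 19.1 CPM with vehicle (-0.77 ± 0.10). None of the 3 genes overlapped between groups. OSMR and LIFR, receptors of the interleukin-6 family, fell by 0.36 ± 0.05 and 0.41 ± 0.06, and the NF-kB inhibitor TNFAIP3 fell by 0.37 ± 0.08. CXCL12, a chemokine of stromal cells, rose by 0.34 ± 0.07.

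Antagonists of several developmental pathways were among the largest falls. HHIP, a decoy that binds hedgehog ligands (ENSG00000164161.10, chromosome 4, 144646156 to 144745271), had 4.11, 7.26 and 3.69 CPM in insulin-treated cells, against 24.5, 22.0 and 20.1 CPM in vehicle-treated cells. The groups were far apart in counts too, with 101, 169 and 62 against 708, 572 and 579, and the level was 4.42-fold lower (-2.12 ± 0.15, adjusted p = 4.21e-11). Other hedgehog genes gave less: 7 of 20 measured members fell, including the coreceptor GAS1 (-0.73 ± 0.07), but 2 without insulin library 3, 4 without insulin library 2, 3 without vehicle library 1, 4 without vehicle library 2 and 2 in the fit of the 6 libraries alone. GLI1, the readout of hedgehog signalling, had 4.51, 5.19 and 5.24 CPM with insulin, against 4.01, 4.00 and 3.92 CPM with vehicle and did not pass (0.32 ± 0.15, adjusted p = 0.226). NOG, noggin, an antagonist of bone morphogenetic proteins (BMP), had 3.29, 4.34 and 4.76 CPM with insulin, against 8.68, 8.88 and 9.27 CPM with vehicle (-1.13 ± 0.13). FST, follistatin, an antagonist of activin, had 12.5, 12.6 and 12.5 CPM with insulin, against 22.1, 24.6 and 24.5 CPM with vehicle (-0.92 ± 0.08). Both antagonists were lower in every insulin library, and so was TGFBR2, a TGF-beta receptor (-0.49 ± 0.05). The TGF-beta, activin and BMP list had 11 of 45 members lower and 1 higher, the stress-induced GDF15 (0.47 ± 0.09), with 6 lower in the fit of the 6 libraries alone. DKK1, a secreted Wnt inhibitor, had 297, 301 and 347 CPM with insulin, against 532, 532 and 540 CPM with vehicle (-0.76 ± 0.05, adjusted p = 1.06e-11). SFRP1, another Wnt inhibitor, had 882, 887 and 848 CPM with insulin, against 1220, 1211 and 1220 CPM with vehicle (-0.48 ± 0.04). Of 34 Wnt genes 5 fell and none rose, the other 3 being the receptors FZD1 (-0.59 ± 0.07), FZD7 (-0.36 ± 0.08) and FZD8 (-0.71 ± 0.12), and CTNNB1 did not pass (0.07 ± 0.05). Without insulin library 1, 9 Wnt genes were lower, and 8 without vehicle library 1.

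Of 32 measured angiogenic and other growth factor genes 9 fell, 1 rose and 22 did not pass, and of 16 EGF family ligands and receptors 3 fell, 1 rose and 12 did not pass. The EGF receptor gene EGFR had 391, 378 and 348 CPM in insulin-treated cells, against 486, 452 and 470 CPM in vehicle-treated cells (-0.33 ± 0.05). FGF7, a mitogen of epithelium, had 31.2, 41.4 and 23.2 CPM with insulin, against 61.0, 56.8 and 55.0 CPM with vehicle (-0.83 ± 0.11). VEGFC, a lymphatic growth factor, had 77.9, 76.8 and 74.0 CPM with insulin, against 105, 101 and 98.4 CPM with vehicle (-0.41 ± 0.05). The groups did not overlap in any of these. EDN1, endothelin-1, fell too (-0.88 ± 0.16). The genes that rose were the KIT ligand KITLG (0.18 ± 0.05) and the EGF family ligand EPGN (0.64 ± 0.19), and neither passed without vehicle library 3. In the fit of the 6 libraries alone 5 growth factor genes and 2 EGF family genes were lower and none was higher.

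Targets of p53 had more members that rose than any other of the 43 lists, which differ in size. The lists were chosen with earlier results of these data known, so this rank only describes them. Of 31 measured members 20 rose, 1 fell and 10 did not pass, with a median of 0.30, against 0.00 over all genes tested; 16 rose without vehicle library 3 and 13 in the fit of the 6 libraries alone. MDM2, the ubiquitin ligase of p53, had 472, 515 and 486 CPM in insulin-treated cells, against 332, 302 and 289 CPM in vehicle-treated cells (0.68 ± 0.05, adjusted p = 7.16e-11). CDKN1A, the cyclin-dependent kinase inhibitor p21, had 687, 562 and 599 CPM with insulin, against 422, 452 and 419 CPM with vehicle (0.51 ± 0.06, adjusted p = 1.8e-07). TP53I3, an oxidoreductase, had 87.5, 83.9 and 89.9 CPM with insulin, against 58.7, 62.0 and 61.6 CPM with vehicle (0.52 ± 0.06). No vehicle library reached an insulin library for any of the 3. The antiproliferative gene BTG2 rose by 0.51 ± 0.07, the ribonucleotide reductase subunit RRM2B by 0.39 ± 0.05, the death receptor FAS by 0.43 ± 0.08 and TIGAR, a phosphatase that restrains glycolysis, by 0.54 ± 0.13. PLK2, a kinase induced by p53, fell by 0.39 ± 0.05, and the apoptosis effector BAX did not pass (0.02 ± 0.05). CLCA2, a regulator of chloride conductance that p53 induces, had 19.5, 24.2 and 23.5 CPM with insulin, against 12.0, 12.9 and 11.7 CPM with vehicle (0.87 ± 0.10). GLS2, the glutaminase that p53 induces, had 7.81, 7.51 and 8.34 CPM with insulin, against 5.05, 5.53 and 4.03 CPM with vehicle (0.69 ± 0.13). Both were among the 15 largest rises.

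The remaining large rises had varied functions. SLC52A1, a riboflavin transporter, had 10.8, 8.72 and 9.88 CPM in insulin-treated cells, against 4.91, 6.49 and 5.55 CPM in vehicle-treated cells (0.80 ± 0.13). GREB1, a gene that oestrogen induces in breast and uterine cells, had 8.17, 8.89 and 9.88 CPM with insulin, against 4.63, 6.95 and 4.48 CPM with vehicle (0.74 ± 0.15). ESR1, the oestrogen receptor alpha gene, was near 0, at 0.0813 to 0.215 CPM with insulin and 0 to 0.499 CPM with vehicle. ARRDC4, an arrestin relative of TXNIP, rose by 0.74 ± 0.12, the endocytic adaptor STON2 by 0.71 ± 0.13, the cadherin CDH10 by 0.70 ± 0.13, the fatty acid binding protein FABP3 by 0.66 ± 0.09 and the glycerophosphocholine hydrolase GPCPD1 by 0.64 ± 0.09. DRAXIN, an axon guidance protein, rose by 0.69 ± 0.12. Further large falls were LYPD6B, of the LY6 family (-1.24 ± 0.18), TMEM158, induced by activated RAS (-1.05 ± 0.09), VIPR1, a receptor of vasoactive intestinal peptide (-0.97 ± 0.13), TLL1, a protease that matures procollagen (-0.90 ± 0.15), and the long noncoding RNA LINC00707 (-0.88 ± 0.12).

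Amino acid and serine genes rose in part. Of 32 measured ATF4 and amino acid response genes 10 rose and 4 fell, with a median of 0.14. SLC3A2, the heavy chain of amino acid exchangers, had 101, 88.2 and 103 CPM in insulin-treated cells, against 75.4, 77.3 and 78.0 CPM in vehicle-treated cells (0.34 ± 0.05). The transfer RNA synthetase genes SARS1 and WARS1, both members of the list, rose by 0.26 ± 0.04 and 0.27 ± 0.05, while the transporter SLC38A2 fell by 0.21 ± 0.04. ATF4 itself had 172 to 174 CPM with insulin and 169 to 176 CPM with vehicle (0.00 ± 0.04). Without vehicle library 1, 6 members were higher, and in the fit of the 6 libraries alone 5 were higher and 2 lower. PSAT1, an aminotransferase of serine synthesis, had 157, 157 and 172 CPM with insulin, against 110, 113 and 119 CPM with vehicle, groups that did not overlap (0.51 ± 0.05, adjusted p = 1.38e-08). Of 18 serine and folate enzymes 4 rose and none fell, 2 of them without vehicle library 3, without vehicle library 1 or without insulin library 3, and 1 in the fit of the 6 libraries alone.

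Interferon response genes depended on single libraries. Of 45 measured members 7 rose and none fell, with 2 higher without vehicle library 3, 4 without vehicle library 1, 4 without insulin library 2 and 15 without vehicle library 2. TRIM22, an antiviral ligase, had 29.2, 37.6 and 25.8 CPM in insulin-treated cells, against 20.2, 22.6 and 20.1 CPM in vehicle-treated cells (0.57 ± 0.10). MX1, an antiviral GTPase, had 42.0, 38.6 and 30.6 CPM with insulin, against 26.4, 49.9 and 25.2 CPM with vehicle, so that vehicle library 2 stood above every insulin library and the gene did not pass (0.15 ± 0.17).

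Of 34 sterol and fatty acid synthesis genes 1 rose and 1 fell, with 5 higher in DESeq2 and 3 higher without insulin library 3. The share called in this list, 5.88%, was near the 6.28% over all genes tested. The mevalonate enzyme HMGCS1 rose (0.18 ± 0.05) but did not pass without vehicle library 3 or without insulin library 2. The lipogenic factor SREBF1 (-0.01 ± 0.06), the synthase FASN (0.05 ± 0.07) and the desaturase SCD (0.14 ± 0.04, adjusted p = 0.057) did not pass. In glycolysis 4 of 25 members fell, among them the glucose transporter SLC2A3 (-0.25 ± 0.05) and PFKFB3, which activates phosphofructokinase (-0.30 ± 0.07), and none rose; 2 were lower without insulin library 3 and 2 in the fit of the 6 libraries alone. SLC2A1 and HK2 did not pass (both -0.13). DDIT4, an inhibitor of mTORC1 that hypoxia and stress induce, rose by 0.49 ± 0.06, while 4 of 21 hypoxia-induced genes fell, including NDRG1 (-0.38 ± 0.06). Of 25 genes of glycogen metabolism none passed in edgeR or DESeq2 (3 had an unadjusted p under 0.05), and 1 was higher without insulin library 2. Of 36 S-phase genes 1 rose, GINS1 (0.20 ± 0.06), and 1 fell, MCM5 (-0.17 ± 0.05), and none passed without vehicle library 3 or without insulin library 3. The share of S-phase genes called, 5.56%, was also near that over all genes tested. Of 35 mitosis genes 3 rose, led by the cyclin CCNB1 (0.21 ± 0.04), and 1 fell. Without insulin library 2, 1 mitosis gene was higher, and none passed in the fit of the 6 libraries alone. MKI67, a marker of cycling cells, did not pass (-0.03 ± 0.06). The CDK inhibitors CDKN2B and CDKN2A fell by 0.43 ± 0.05 and 0.27 ± 0.06. Among 36 lysosome and autophagy genes 9 fell, with the cathepsins CTSF (-0.47 ± 0.07) and CTSB (-0.28 ± 0.05), and 2 rose. In the fit of the 6 libraries alone 2 lysosome genes were lower and 1 higher. Of 15 mitochondrially encoded genes none passed in edgeR or DESeq2, with a median of -0.22 and an unadjusted p under 0.05 in 9, but 10 were lower and 1 higher without insulin library 2.

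Markers of other cells were measured beside these changes. Epithelial markers had 2 of 19 members lower, the tight junction gene CLDN1 (39.8 to 47.1 CPM in insulin-treated cells and 65.0 to 68.3 CPM in vehicle-treated cells) and KRT18 (-0.22 ± 0.05). Mesenchymal markers had 6 of 23 lower and 1 higher. VIM, vimentin, had 1644, 1490 and 1617 CPM with insulin, against 1903, 2003 and 1993 CPM with vehicle (-0.31 ± 0.04), and its part in the matrix result was not tested. Endothelial markers summed to 18.9 to 19.8 CPM with insulin and 22.6 to 24.9 CPM with vehicle, with 2 of 11 lower, and the defining genes PECAM1 and CDH5 were at most 0.173 and 1.00 CPM. Immune markers summed to 198 to 220 CPM with insulin and 244 to 263 CPM with vehicle, most of it NCAM1, and 3 of 11 were lower. PTPRC, the leucocyte marker CD45, had 0.976, 1.16 and 0.476 CPM with insulin, against 1.35, 0.884 and 9.03 CPM with vehicle. Its difference of -2.07 rests on vehicle library 3 and was -0.33 without it (adjusted p = 0.743). LCK, a T-cell kinase, had 5.38 CPM in vehicle library 3 and at most 0.0429 CPM in the other 5, and IKZF1, a lymphoid factor, had 2.05 CPM there and 0 in the other 5. These 2 genes were chosen after their values were seen.

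Of the 486 genes in excess in vehicle library 3, 83 passed in the comparison, all at least 2-fold lower with insulin. Without that library 32 of the 83 were not tested, having a mean count under 1, and the others did not pass, an outcome that their choice favours. They make up 83 of the 111 genes that were at least 2-fold lower. Unmapped read pairs were 8.31% in vehicle library 3 and 3.97% to 5.21% in the other 5. CEMIP, CCN2, HHIP, TFPI2, EGR1 and MDM2 are not among the 83. Each passed without vehicle library 3, which was itself a condition for naming a gene as a leading change.

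**Figure D4:**
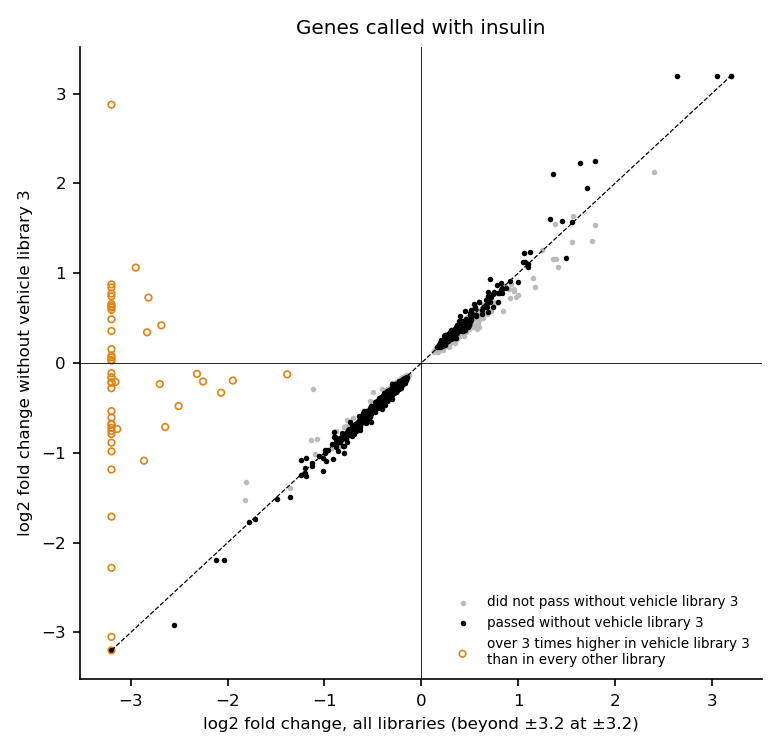
Log2 fold change of insulin over vehicle without vehicle library 3 (vertical axis) against that with all libraries (horizontal axis), both drawn at 3.2 or -3.2 where beyond, for called genes with a value in both; black genes also passed without that library, grey did not, and orange circles are genes over 3 times higher in it than in every other library. Most genes lie on the dashed line of equal values, while the orange genes spread over the left edge.

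Levels in vehicle-treated cells with the non-targeting siRNA are given side by side, with no test, since the siRSAD2 vehicle libraries belong to both differences. TFPI2 had 221 to 266 CPM with siRSAD2 and insulin, 515 to 536 CPM with siRSAD2 and vehicle, and 203 to 211 CPM with non-targeting siRNA and vehicle. TNFRSF11B had 125 to 137, 239 to 246 and 125 to 135 CPM in these 3 groups in the same order, and DUSP6 had 72.1 to 77.8, 117 to 123 and 71.1 to 78.5 CPM. For these genes, given as examples, the insulin-treated knockdown cells were at or near the level of cells without the knockdown. Other genes that fell were not. SERPINE2 averaged 1304 CPM with siRSAD2 and insulin and 876 CPM with non-targeting siRNA and vehicle. In the same order PTX3 averaged 47.9 and 30.9 CPM, and FST 12.5 and 28.7 CPM. CDKN1A had 562 to 687 CPM with siRSAD2 and insulin, 419 to 452 CPM with siRSAD2 and vehicle, and 184 to 198 CPM with non-targeting siRNA and vehicle, and MDM2 had 472 to 515, 289 to 332 and 138 to 146 CPM in that order. For these p53 targets the insulin-treated knockdown cells were farthest from the cells without knockdown. CEMIP had 104 to 115, 371 to 383 and 245 to 265 CPM, and lay below both vehicle groups with insulin. So did CCN2, with 33.5 to 36.8, 78.5 to 86.6 and 39.9 to 45.5 CPM. EGR1 had 47.4 to 52.3, 21.5 to 27.2 and 58.5 to 64.4 CPM, and lay between both vehicle groups with insulin.

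**Figure D5:**
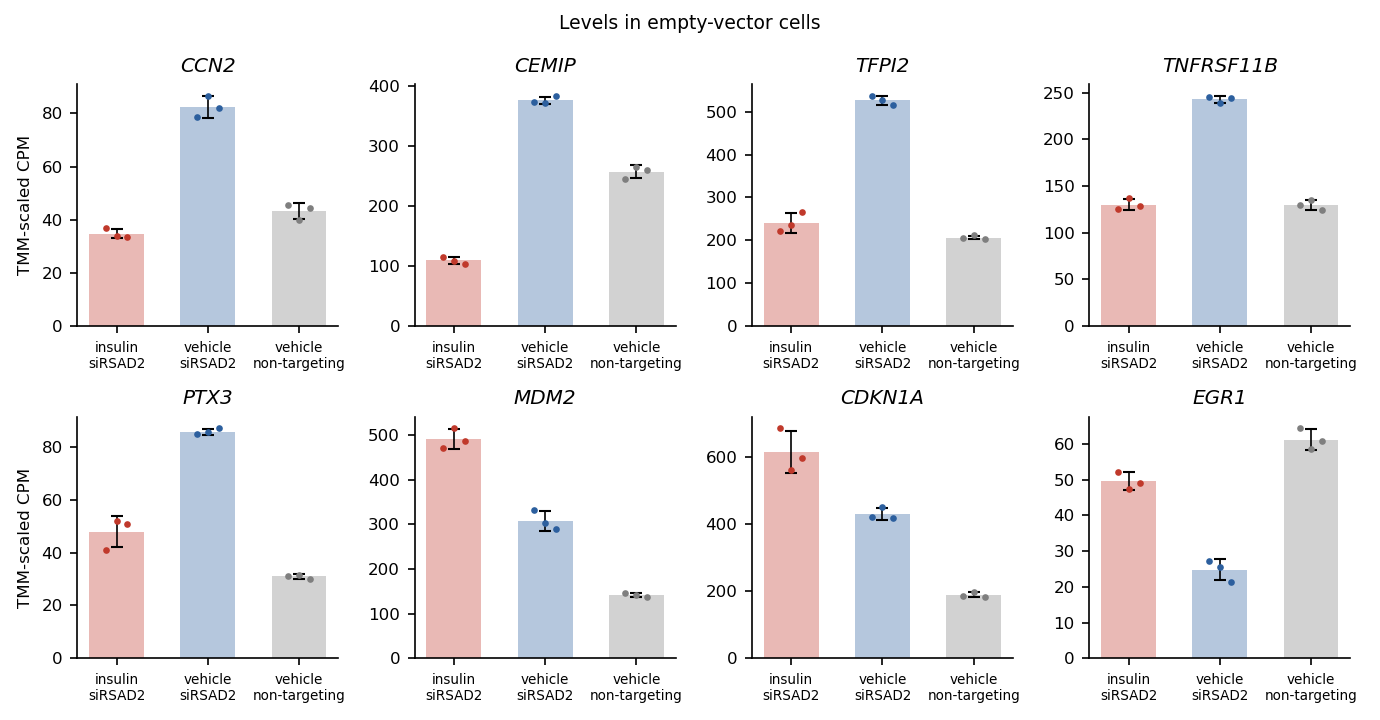
Levels of 8 genes in TMM-scaled CPM (vertical axes) in siRSAD2 cells with insulin, siRSAD2 cells with vehicle and non-targeting cells with vehicle, all with empty vector (horizontal axes); points are libraries, bars the mean and error bars the SD of 3. CEMIP and CCN2 with insulin are below both vehicle groups, and EGR1 with insulin is between them. TFPI2 and TNFRSF11B with insulin are close to the non-targeting level, and PTX3 with insulin is above it. MDM2 and CDKN1A are highest with siRSAD2 and insulin.

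The same insulin treatment was given to siRSAD2 cells with PIK3CA H1047R, and the difference between both responses was tested as an interaction. No gene passed in edgeR (smallest adjusted p = 0.493; 1611 genes had an unadjusted p under 0.05), and DESeq2 called 4. The log2 difference of CEMIP was -1.78 ± 0.06 with empty vector and -1.41 ± 0.06 with H1047R. CCN2 fell by 1.24 ± 0.06 with empty vector and by 1.00 ± 0.06 with H1047R. HHIP changed by -2.12 ± 0.15 and -1.42 ± 0.14 in that order, and EGR1 by 1.00 ± 0.07 and 0.56 ± 0.07. IRS2 changed by -0.72 ± 0.07 with empty vector and -0.76 ± 0.07 with H1047R. The estimates of CEMIP, CCN2, HHIP and EGR1 were smaller in size with H1047R, but none of the differences passed. These genes were named for large changes with empty vector, and the part of that choice in the smaller estimates was not tested. ANKRD1, also among the largest falls, changed by -1.19 ± 0.15 with empty vector and -1.26 ± 0.15 with H1047R. The share of counts on the forward strand was 6.11% to 6.5% in the 6 H1047R libraries and 5.77% to 6.17% in the 6 empty-vector libraries compared here, of which insulin library 3 had the highest. Its part in the interaction was not tested.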

How the data were processed

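Gene expression was measured in 15 libraries of 12Z cells in 5 groups of 3, assigned by their labels; libraries were made from 500 ng of total RNA with a stranded mRNA kit. By the methods and the submitters' processing notes, trimming of the read pairs by the authors used cutadapt and Trim Galore, quality was assessed in FastQC, and STAR aligned the trimmed pairs to hg38. The deposited files hold raw STAR gene counts per library (unstranded, forward and reverse), not normalised, and their 4 summary entries were kept apart from the genes. Tool versions were not given in the sources used here. The methods name an annotation release with a mouse number, but the identifiers are human; 60357 of 60617 identifiers matched GENCODE release 44, which gave symbols and coordinates.

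The reverse-stranded counts were used, as in the study. Genes averaging 1 count or more per library were fitted in edgeR 4.0.16 (R 4.3.3) with all 15 libraries, a term per group, TMM scaling and the quasi-likelihood test, adjusted by the Benjamini-Hochberg method. There were 10 residual degrees of freedom, and the fit was also run on simulated data. Those data had the same spread in all groups and no outlying library, so that run cannot show the effect of either. CPM values are counts divided by TMM-scaled library sizes in M. The SE was derived from the test, as the absolute log2 fold change divided by the square root of the quasi-likelihood F statistic. Gene counts were 16.1 to 39.7 M per library. The labels name no batch. Columns of comparisons by the authors were not used.

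The members and the 43 gene lists (1103 symbols tested) were chosen with earlier results of these data known. Genes named as the largest changes are the 15 largest in each direction among genes past 0.05 with at least 5 CPM, groups that do not overlap, and a pass without vehicle library 3 and without insulin library 2. From each list up to 3 members per direction with the smallest p, and the defining receptors or factors, are named; further members were chosen after their values were seen. A few of the genes so chosen are not reported here. Promoter windows come from RefSeq tables of GRCh38.p14. Alternatives were DESeq2 1.42.0, RLE factors, edgeR's filter or none, a threshold of 0.001, unstranded counts, the 6 libraries alone, replicate blocks and each library left out.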

Additional observations from a re-analysis of the deposited data

How the results depend on the processing

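CEMIP and CCN2 passed with the same sign under every alternative run. Stability was counted for 157 genes: RSAD2, PIK3CA, CEMIP, CCN2, the largest changes and up to 3 members per list and direction with the smallest p. Further members named in the text are not in these counts. None of the 157 genes reversed, but 155 of them passed in the main fit. Every alternative uses the same libraries or fewer of them, so few reversals could arise. Of the 157, 34 lost their call in at least 1 fit with a library left out, and 42 in the 6 libraries alone. In the 6 libraries, 58 lost it without vehicle library 3 and 60 without insulin library 3. At a threshold of 0.001, 55 lost it. The count of calls was less stable. Against 1457 calls (486 higher, 971 lower), the fit of the 6 libraries alone, with 4 residual degrees of freedom, gave 520 (100 higher, 420 lower), of which 519 were among the 1457. The common coefficient of variation between replicates was 0.0571 in the fit of 15 libraries and 0.0831 in the 6 alone. Adjusted p values of the main edgeR fit rest on the smaller spread (for CEMIP 6.55e-19, against 3.23e-10 in the 6 alone). In the 6 libraries alone, leaving out vehicle library 3 gave 383 (61 and 322) and leaving out insulin library 3 gave 311 (54 and 257); these fits were chosen after the data were seen. A threshold of 0.001 gave 353 (54 and 299). With each library left out in turn, the calls ranged between 947 and 1844, the lowest without vehicle library 3, the lower genes between 710 and 1163, and the higher genes between 237 without vehicle library 3 (274 without vehicle library 2) and 681 without insulin library 1; vehicle library 3 and insulin library 2 left out together gave 293 higher genes. DESeq2 gave 1663 calls, 1339 of them shared. The cause of these differences was not tested.

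Whether replicate numbers pair the libraries cannot be told from these values. The deviations of same-numbered libraries correlated at -0.22, -0.13 and 0.06 over 10855 genes, but deviations within a group are not independent. With the replicate block 980 genes passed in the 6 libraries (238 higher), against 520 without it (100 higher). In the 12 siRSAD2 libraries 1337 passed with the block and 1269 without it.

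The interaction of insulin and vector had 0 calls, against 4 in DESeq2, 81 with no filter on low counts, 1 each without insulin library 1, insulin library 2 or vehicle library 1, and 1 without vehicle library 3 and insulin library 2 together. Depth limits genes of a few counts, and insulin library 3 has the fewest counts.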
